A study of Rosa hybrid cultivar with 39 samples.

Results

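The genes described here are 85 rose petal genes whose average expression was at least 2-fold lower than in water (H2O) after each of BR, GA, JA, SA and AgNO3, and less than 2-fold apart from water after abscisic acid (ABA). They were chosen from 30208 gene identifiers, of which 13094 had at least 1 FPKM in H2O. FPKM is a level of expression per transcript length and per amount of mapped fragments. Ratios are log2 ratios of FPKM plus 1, so that a ratio of -1 is a 2-fold decrease and the changes of genes with low values are understated. The ratios of these 6 treatments to H2O chose the genes, and they are given below as a description.

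The petals came from the outer layer of cut flowers of 'Samantha', a red hybrid tea rose, at opening stage 2. Stems stood for 24 h in deionized water (H2O) or in solutions of 5 µM epibrassinolide (BR), 80 µM gibberellic acid (GA), 50 µM jasmonic acid (JA), 100 µM salicylic acid (SA), 80 µM silver nitrate (AgNO3), 100 µM ABA, 100 µM 1-naphthaleneacetic acid (NAA), 100 µM 2,4-dichlorophenoxyacetic acid (2,4-D) or 100 µM 6-benzylaminopurine (6-BA). Other flowers were held for 24 h in air (AIR) or in 1-methylcyclopropene at 2 µL per L (1-MCP), and the doses therefore differ between agents. Each condition had 3 replicates, each collected from several flowers, but the deposited values are 1 average per condition. The spread between replicates therefore cannot be given, no difference was tested, and each value below is an average with no error. The depth of the libraries cannot be read from these averages. The values deposited for ethylene (ET) are those of AIR, and ET was not analysed here. Whether the AIR values come from flowers in air or in ethylene cannot be told from them.

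Brassinosteroids are plant steroid hormones that promote cell expansion, and gibberellins promote growth by triggering the degradation of DELLA repressor proteins. Jasmonic and salicylic acid are best known for defence responses, and silver ions block ethylene perception at the receptors. ABA accumulates under water deficit and often acts against gibberellin. 6-BA is a cytokinin, both NAA and 2,4-D act as synthetic auxins, and 1-MCP binds ethylene receptors and blocks them. The files give the genes as identifiers without names, so neither the roles of the 85 genes nor the petal markers could be looked up, and no sequence is shown. In these whole petals, fewer cells of a type and less RNA per cell cannot be told apart.

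Requiring all 5 treatments to be at least 2-fold lower than H2O left 95 genes, which is 0.726% of the genes with at least 1 FPKM in H2O. The limit on ABA then removed 10 genes. For single treatments, the share of these genes at least 2-fold lower was 6.47% in BR, 3.6% in GA, 2.65% in JA, 3.25% in SA and 3.31% in AgNO3. The 85 genes were more often highly expressed in H2O than the genes they were chosen from. The median was 37.5 FPKM in H2O, against 10.8 for all genes with at least 1 FPKM there. Of the genes with 1 to 10 FPKM in H2O 24 were members, which is 0.38% of that class. Of those from 10 to 100 FPKM 33 were members, or 0.617%, and of those with at least 100 FPKM 28, or 1.97%. The pseudocount makes the threshold harder to reach for genes near 1 FPKM, and the lowest member was at 2.77 FPKM in H2O.

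Together the 85 genes held 1.24% of the summed FPKM of all genes in H2O and 1.13% in ABA. In the treatments that chose them, the share was 0.367% in BR, 0.447% in JA, 0.492% in GA, 0.501% in AgNO3 and 0.513% in SA. The remaining conditions lay between these extremes, at 0.968% in 6-BA, 0.888% in NAA, 0.810% in 2,4-D, 0.779% in 1-MCP and 0.778% in AIR. The rule itself places H2O and ABA above the 5 treatments. It does not use the cytokinin, the auxins, AIR or 1-MCP. Because it takes genes high in H2O and low in the 5 treatments, it favours places between them for these conditions too.

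**Figure D1:**
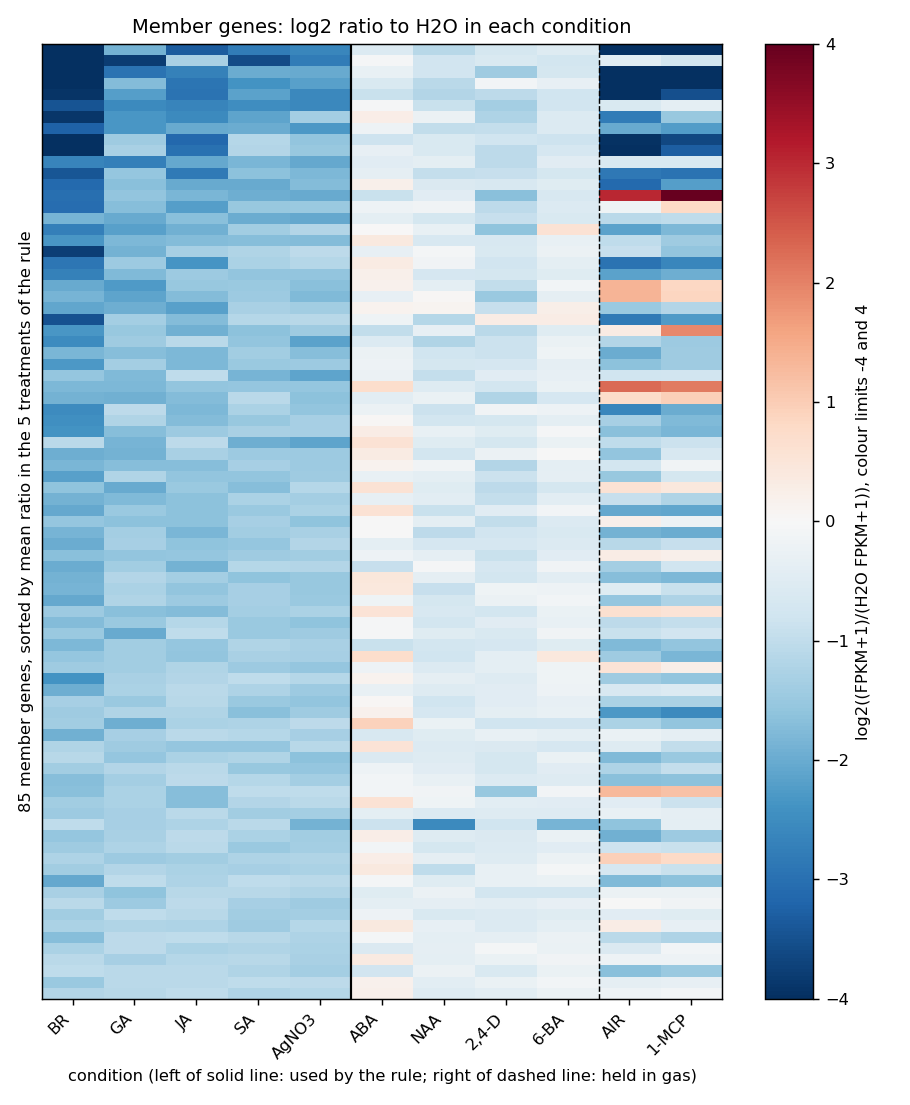
Log2 ratios of FPKM plus 1 to H2O for the 85 genes (rows, sorted by the mean ratio in BR, GA, JA, SA and AgNO3) in 11 conditions (columns), with blue for lower and red for higher than H2O and colours limited at -4 and 4. The columns left of the solid line chose the genes, ABA is near white, and AIR and 1-MCP, right of the dashed line, hold both the deepest blue and the red cells outside the rule.

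The most abundant of the 85 was LOC112199826, on NC_037091.1 from 23300395 to 23301915, with 1421 FPKM in H2O, the 57th highest of all genes there. It was at 534 in BR, 618 in GA, 614 in JA, 441 in SA and 532 in AgNO3. In ABA it was at 1599, in 6-BA at 1164, in 2,4-D at 1082, in NAA at 899.9, in AIR at 285 and in 1-MCP at 243. The gas-held flowers thus had the lowest values of this gene, and ABA was the only condition above water.

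LOC112182880, on NC_037088.1 from 58942963 to 58943818, was second in H2O with 1066 FPKM and differed more between treatments. Its level was 69.4 in BR, 138 in JA, 177 in AgNO3, 233 in GA and 243 in SA. It was at 574 in ABA, 469 in NAA, 519 in 2,4-D, 619.7 in 6-BA, 53.6 in AIR and 93.1 in 1-MCP. This gene was also at least 2-fold lower than H2O in both auxins, with log2 ratios of -1.18 in NAA and -1.04 in 2,4-D.

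LOC112192516, on NC_037090.1 from 396769 to 397439, was the third, with 1011 FPKM in H2O. Its level was nearly the same in all 5 treatments, from 439.7 in SA to 505 in JA, and the span between them, 0.20 on the log2 scale, was the smallest of the 85 genes. It was at 1161 in ABA, 713 in NAA, 748 in 2,4-D, 860.4 in 6-BA, 870.4 in AIR and 929 in 1-MCP. Unlike the former genes it was therefore close to water in the gas-held flowers.

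The next abundant genes, with 1 exception, differed less between the 5 treatments than LOC112182880 did. LOC112166341 was at 760.2 FPKM in H2O, at 228 to 342 in the 5 treatments, at 731 in ABA and at 368 in AIR. LOC112197827 was at 527 in H2O, 136 to 246 in the 5 treatments, 431 in ABA and 337 in AIR. LOC112170547 was at 451 in H2O, 179 to 214 in the 5 treatments, 581 in ABA and 390.4 in AIR. In each of these genes the highest of the 5 treatments was less than 2-fold above the lowest. LOC112189550 was at 401 in H2O, 142 to 191 in the 5 treatments and 225 in AIR. LOC112164904 was at 399 in H2O, 143 to 199 in the 5 treatments and 312 in AIR, and LOC112173876 at 244, 58.8 to 75.7 and 114. LOC112192610, at 259 in H2O, stood apart from them with 18.0 in BR against 69.5 in GA, 101 in JA, 112 in SA and 126 in AgNO3.

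**Figure D2:**
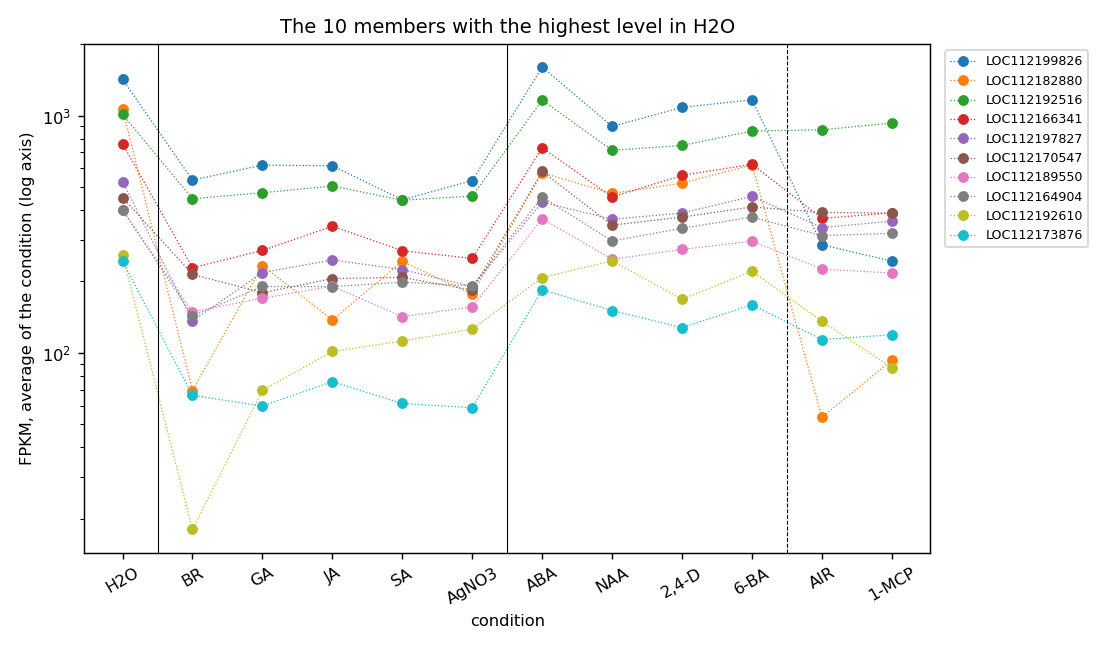
Average FPKM (log axis) of the 10 members with the highest level in H2O in 12 conditions, 1 colour per gene, with thin dotted lines that only connect the points of a gene. The 5 treatments between the solid lines are below H2O by the rule, while ABA, NAA, 2,4-D and 6-BA lie above all 5 for each gene shown, and LOC112192610 has the lowest point, 18.0 in BR.

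Among the treatments of the rule, BR gave the deepest decrease. The median ratio of the 85 genes was -1.87 in BR, -1.53 in JA, -1.46 in GA, -1.43 in AgNO3 and -1.40 in SA, where the median of all genes with at least 1 FPKM in H2O was between 0.03 and 0.05. BR had the lowest level of the 5 in 53 genes, GA in 11, AgNO3 in 9, JA in 7 and SA in 5. Of all genes with at least 1 FPKM in H2O, BR was the lowest of the 5 in 24.1%, GA in 10.9%, AgNO3 in 17.1%, JA in 26.7% and SA in 21.2%. The lowest ratio in BR was -7.37, while those in GA, JA, SA and AgNO3 were -3.78, -3.33, -3.57 and -2.79. The span between the mildest and the deepest of the 5 ratios had a median of 0.80 and reached 5.48.

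Compared directly with each other, SA and AgNO3 were the most alike in these genes. Of 79 genes with at least 1 FPKM in either, none was 2-fold apart, where 0.592% of all genes with that level were lower and 0.282% higher in SA. The median size of their log2 ratio was 0.136 in the 85 genes and 0.115 in all genes. GA was also less than 2-fold apart from SA in all 77 genes compared (0.935% of all genes lower in GA, 0.921% higher) and from AgNO3 in all 79 (1.48% and 0.714%). JA was at least 2-fold lower than SA in 4 of 78 genes (1.57% of all genes) and higher in 1 (2.24%), and lower than AgNO3 in 5 of 79 (1.58%) and higher in 4 (1.87%). GA was at least 2-fold lower than JA in 2 of 76 genes (1.45%) and higher in 5 (0.91%). That no member was 2-fold apart between GA, SA and AgNO3 is near the small shares of all genes, and is no trait of the members. The median size of the log2 ratio was larger in the members than in all genes, at 0.213 against 0.168 for GA and SA. For GA and AgNO3 it was 0.218 against 0.162. JA was 2-fold apart from each of GA, SA and AgNO3 in a few genes. BR was at least 2-fold lower than SA in 21 of 77 genes and higher in none, where 4.73% of all genes were lower and 2.44% higher. It was at least 2-fold lower than AgNO3 in 20 of 78 genes (5.53% of all genes) and higher in 1 (2.65%). It was lower than GA in 19 of 74 (3.76%) and than JA in 15 of 74 (4.12%), and higher in none of them (1.07% and 1.22%). Because the rule puts every gene 2-fold below H2O in each of these treatments, these direct ratios describe how the decreases differed and do not support them.

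The deepest decreases among genes with at least 10 FPKM in H2O were seen in a few genes with very low levels in BR. LOC112201936 and LOC112165942 share 1 deposited locus, NC_037092.1 from 69056213 to 69101527. LOC112201936 was at 240.1 FPKM in H2O, 0.457 in BR, 22.9 in JA, 34.0 in SA, 38.8 in AgNO3 and 64.3 in GA. LOC112165942 was at 152 in H2O, 4.73 in BR, 19.2 in JA, 28.1 in SA, 33.2 in AgNO3 and 45.2 in GA. Both had the same order of treatments. In the gas-held flowers they were at 0.672 and 1.14 in AIR and at 2.33 and 2.66 in 1-MCP, while ABA left them at 165 and 99.7. Another member, LOC112166493, has the same locus at a lower level, with 8.73 in H2O, 0.684 in BR, 1.81 in JA, 3.68 in GA and 0.592 in AIR. How reads were divided between genes with a common locus was not examined.

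LOC112187530, on NC_037089.1 from 88346708 to 88352759, had a different order. It was at 16.2 FPKM in H2O, nearly 0 in BR, 0.252 in GA, 0.451 in SA, 1.49 in AgNO3 and 6.00 in JA, and between 9.04 and 15.7 in the other conditions. LOC112187529 has the same locus and went the other way, from 1.53 in H2O to 5.70 in JA and between 9.24 and 10.5 in BR, GA, SA and AgNO3. The decrease of LOC112187530 is thus not a decrease of the whole locus to the same extent, and whether reads moved from 1 identifier to the other was not tested.

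The remaining genes of this group were lower in BR than in the other treatments as well. LOC112192775 (NC_037090.1, 33497734 to 33499295) had 29.1 FPKM in H2O, 0.426 in BR, 2.88 in GA, 3.63 in JA, 6.44 in AgNO3 and 6.62 in SA. LOC112173066 (NC_037093.1, 59505422 to 59506832) had 149 FPKM in H2O, 12.7 in BR and 23.2 to 25.6 in GA, JA, SA and AgNO3. LOC112201476 was at 35.2 in H2O, 1.44 in BR, 5.23 in JA, 6.14 in GA, 7.41 in SA and 13.1 in AgNO3. BR had the lowest value of each of them. LOC112200187 was at 164 in H2O, 16.5 in BR and 32.1 to 40.5 in the other 4 treatments. LOC112199947 was at 153 in H2O, 6.99 in BR and 16.4 in JA but at 50.9 in AgNO3, 56.7 in GA and 69.1 in SA. LOC112176277, at 53.7 in H2O, followed it with 1.56 in BR and 5.95 in JA but 18.1 in AgNO3, 21.3 in GA and 23.4 in SA. In the last pair of genes BR and JA were thus far below the other treatments.

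At the edge of the rule, just inside, were LOC112192516 with 1011 FPKM in H2O and 505 in JA, LOC112164904 with 399 and 199 in SA, and LOC112169867 with 2.77 and 0.878 in SA. Just outside, 98 genes met the rule in 4 of the 5 treatments, and in 51 of them JA was the treatment that missed it. LOC112173998 missed it by the least, with 100.7 FPKM in H2O, 4.44 in BR, 19.0 in JA, 41.6 in AgNO3, 47.3 in GA and 49.9 in SA. It was followed by LOC112191493, at 24.2 in H2O and 11.6 in GA, and LOC112181661, at 26.6 in H2O and 12.8 in JA. Only the ratio in the limiting treatment is alike in the genes just inside and just outside, and their other values differ widely.

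ABA was limited by the rule to less than 2-fold, and within that limit its ratios had a median of -0.12, from -0.99 to 0.92. Of the 85 genes, 52 were below and 33 above H2O in ABA, where 47.6% of all genes were below. That ABA was above all 5 treatments in each gene follows from the rule. Of all genes with at least 1 FPKM in H2O, 4.7% were at least 2-fold apart in ABA, 1.98% lower and 2.72% higher. Of the 10 genes that this limit removed, 9 were at least 2-fold lower in ABA and 1 was higher. The latter, LOC112165827, was at 36.7 FPKM in H2O, 81.4 in ABA, 2.25 in BR, 3.29 in JA and 2.34 in AIR. The most abundant of the former, LOC112169651, was at 1499 in H2O, 725 in ABA, 100.3 in BR, 247 in JA, 440.3 in AgNO3, 501 in SA and 561 in GA, and at 20.3 in AIR.

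The auxins and the cytokinin were not part of the rule, although they were compared with the same H2O average, which the rule favours to be high. In each of them most of the 85 genes lay below H2O by less than 2-fold. The median ratio was -0.51 in NAA, -0.68 in 2,4-D and -0.36 in 6-BA, and the medians of all genes with at least 1 FPKM in H2O were 0.04, 0.02 and -0.01. Below H2O by any amount were 83 genes in NAA, 84 in 2,4-D and 81 in 6-BA, where 44.3%, 46.3% and 52.1% of all genes were. At least 2-fold lower were 8 genes in NAA against 0.344% of all genes, 15 in 2,4-D against 0.596% and 1 in 6-BA against 0.496%. With a pseudocount of 0.1, 23 of the same 85 genes were at least 2-fold lower in 2,4-D, and the share of all genes at that pseudocount was not counted. With the pseudocount of 1, only the 1 gene lower in 6-BA could be at least 2-fold lower in all of NAA, 2,4-D and 6-BA, and it was not. The share of all genes lower in all of them was not counted and is at most the 0.344% in NAA.

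In 77 genes NAA, 2,4-D and 6-BA were each above all 5 treatments of the rule, where 12.1% of all genes were, and in 75 they were also each below H2O (6.61% of all genes). The rule brings much of this, since it takes genes with low values in the 5 treatments and high values in H2O. 6-BA was above 2,4-D in 74 genes (44.9% of all genes) and above NAA in 60 (45.9%), while 2,4-D was above NAA in 37 (47.0%). The exceptions include LOC112188900, which was at 17.5 FPKM in H2O, 27.0 in 6-BA and 5.13 in 2,4-D, where SA was at 6.04, and LOC112180939, at 18.0 in H2O, 22.3 in 6-BA, 22.1 in 2,4-D and 7.56 in NAA, where AgNO3 was at 7.86. LOC112193407, at 4.84 in H2O, had the lowest ratios in NAA and 6-BA, with nearly 0 and 0.599, and was at 2.39 in 2,4-D. These genes were named after their values were seen.

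**Figure D3:**
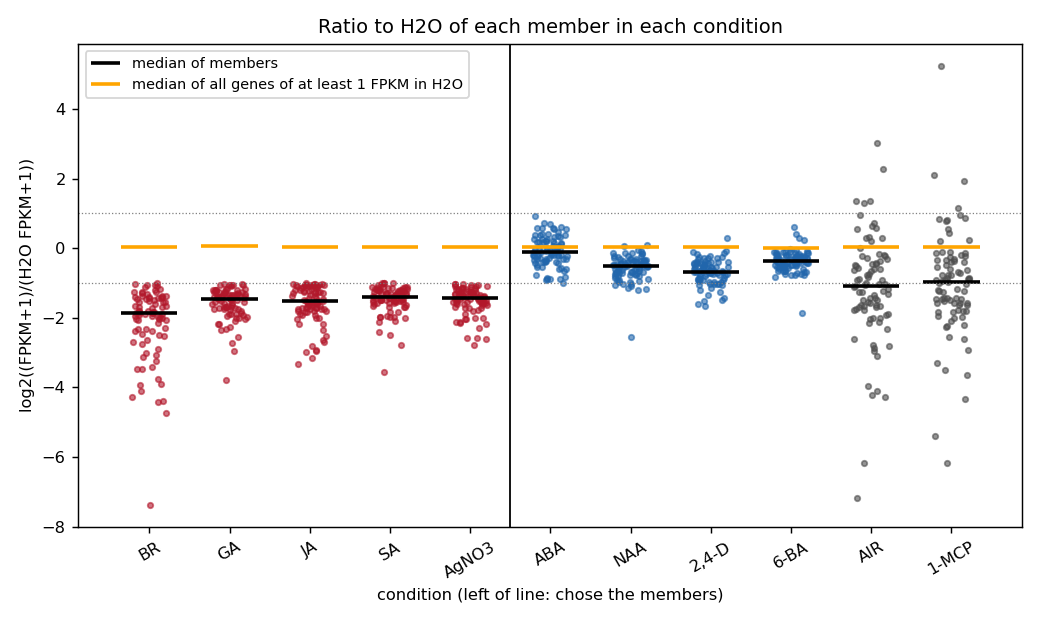
Log2 ratio of FPKM plus 1 to H2O (y axis) of each of the 85 genes (points) in 11 conditions (x axis), with the median of the members in black and that of all genes with at least 1 FPKM in H2O in orange, and dotted lines at 2-fold. Left of the vertical line the rule puts every point at or below -1, the medians in NAA, 2,4-D and 6-BA are -0.51, -0.68 and -0.36, and AIR and 1-MCP have the widest spread.

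H2O was the control of every comparison in solution, so the rule favours genes with a high H2O average. H2O had the highest level of the 10 conditions in solution in 50 of the 85 genes, ABA in 31, 6-BA in 3 and NAA in 1. The rule keeps the 5 treatments from being the highest, and the shares of all genes were not counted, so these counts only describe the members. With another average as control, fewer genes passed. Against 6-BA, all 5 treatments were lower in 84 of the 85 genes and at least 2-fold lower in 26, where 0.389% of all genes with at least 1 FPKM in 6-BA were. Against NAA, 82 genes were lower in all 5 and 18 were at least 2-fold lower (0.176% of all genes), and against 2,4-D 80 and 10 (0.105%). The median ratios against 6-BA were -1.52 in BR, -1.15 in GA, -1.14 in JA, -1.06 in SA and -1.09 in AgNO3. Against 2,4-D they lay between -1.15 in BR and -0.79 in SA. Of all genes with at least 1 FPKM in the control, all 5 were lower than 6-BA in 29.2%, than NAA in 25.3% and than 2,4-D in 23.3%. The 85 genes were chosen for low averages in the same 5 treatments, so the counts with another control are a description and no support for the decrease. Applied to all genes, the whole rule found 45 genes with 6-BA as the control, 26 of them among the 85, 20 with NAA and 9 with 2,4-D.

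**Figure D4:**
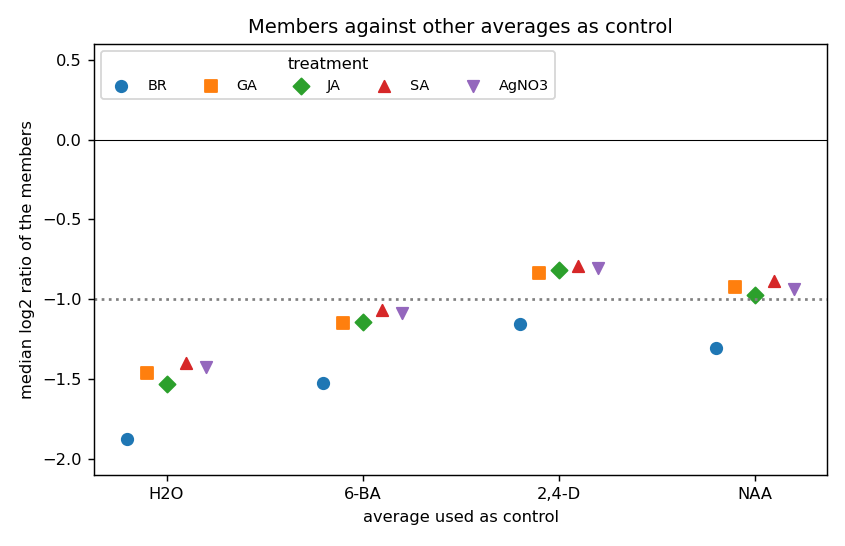
Median log2 ratio (y axis) of the 85 genes in BR, GA, JA, SA and AgNO3 (symbols) with H2O, 6-BA, 2,4-D or NAA as the control average (x axis), and a dotted line at a 2-fold decrease. All medians are below 0, BR is the lowest with each control, and the medians with 2,4-D as the control are closest to 0. With 2,4-D and with NAA alike, 4 of 5 medians are above -1 and only that of BR is below it.

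The flowers held in gas differed most among the 85 genes. Against H2O, 47 genes were at least 2-fold lower in AIR, where 7.19% of all genes were, and 5 were at least 2-fold higher, where 6.04% were. In 1-MCP the numbers were 41 lower (5.1% of all genes) and 4 higher (5.17%). In 39 genes both were at least 2-fold lower and in 3 both were higher. The share of all genes for both together was not counted, but it cannot exceed the 5.1% lower and 5.17% higher in 1-MCP. Few of all genes were 2-fold apart between 1-MCP and AIR (1.23% lower and 1.73% higher in 1-MCP), so the joint counts largely repeat the single ones. The median ratio was -1.09 in AIR and -0.96 in 1-MCP, and that of all genes 0.03 in both. Below H2O by any amount were 71 genes in AIR, where 47.4% of all genes were, and 72 in 1-MCP (47.7%). These ratios have the same H2O average as the rule, and the agent and the way the flowers were held cannot be told apart in them.

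The lowest ratios in AIR were seen in genes with very low ratios in BR. In 7 genes AIR was at least 8-fold lower than H2O for FPKM plus 1, at a log2 ratio of -3 or less. In all 7 the same held for BR, where 16 of the 85 genes met it. Several other genes did not meet it because of the 1 that is added, so the count of 7 depends on that choice. Among them were LOC112190200, at 9.89 FPKM in H2O and 0.394 in AIR, and LOC112180939, at 18.0 and 1.69. Of all genes with at least 1 FPKM in H2O, 56 met the 8-fold limit in AIR, 38 in BR and 17 in both. Of the genes that met it in BR, 43.8% of the members and 44.7% of all genes met it in AIR, which are similar shares. Of the genes that met it in AIR, 100% of the members and 30.4% of all genes met it in BR. BR is also a value of the rule, which takes genes that are low in BR. The 7 genes were LOC112201936, LOC112165942, LOC112182880, LOC112192775, LOC112176277, LOC112199947 and LOC112175197, the last with 131 FPKM in H2O, 14.2 in BR and 14.4 in AIR. LOC112192775 was at 0.601 in AIR and 0.505 in 1-MCP, LOC112176277 at 2.18 and 4.51, and LOC112199947 at 8.96 and 11.3. In JA these 7 genes had ratios from -3.33 to -2.01, and in SA from -2.78 to -1.13.

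The 5 genes at least 2-fold higher in AIR than in H2O were 5.88% of the members, a share close to the 6.04% of all genes, and they are given as single genes. LOC112168431 (NC_037092.1, 8987396 to 8988342) had 15.0 FPKM in H2O and 0.962 in BR, 2.96 in AgNO3, 3.11 in SA, 3.52 in JA and 4.40 in GA, but at 129 in AIR and 601 in 1-MCP. LOC112172171 (NC_037093.1, 26646663 to 26648345) had 44.1 FPKM in H2O, 11.9 to 14.6 in the 5 treatments, 217 in AIR and 191 in 1-MCP. LOC112180147 was at 16.9 in H2O, 2.69 to 5.41 in the 5 treatments, 44.6 in AIR and 30.8 in 1-MCP. All of them were at their highest levels in gas. LOC112187412 was at 16.2 in H2O, 2.99 to 5.35 in the 5 treatments, 42.9 in AIR and 30.4 in 1-MCP. LOC112169867, near the lower limit with 2.77 in H2O, was at 8.22 in AIR and 7.43 in 1-MCP. These 5 genes had a median ratio of -1.5 in 2,4-D and -0.40 in NAA. The medians were -0.69 and -0.68 in the 47 genes that were at least 2-fold lower in AIR. In the 33 genes less than 2-fold apart in AIR they were -0.55 and -0.43, so the NAA median of the 5 genes is not particular to them. A median of 5 genes rests on few values, and no difference was tested.

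The comparison of 1-MCP with AIR uses no average of the rule. It describes how the members differed between the gas-held flowers, and the cause of their decrease in silver was not tested. Of the 85 genes 77 had at least 1 FPKM in AIR or 1-MCP. None of them was at least 2-fold lower in 1-MCP, where 1.23% of all genes were, and 4 were at least 2-fold higher, where 1.73% were. The median ratio of the 77 genes was 0.03, from -0.64 to 2.21, and that of all genes was -0.01. Below AIR were 34 genes, where 52% of all genes were. With a pseudocount of 0.1, 0 of the same 77 genes were lower and 8 higher, and the shares of all genes at that pseudocount were not counted. Whether the AIR average is from air or from ethylene bears on this comparison.

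LOC112168431 had the highest ratio of 1-MCP over AIR, 2.21. It was followed by LOC112194022, on NC_037088.1 from 55012043 to 55013584, at 13.4 FPKM in AIR, 42.8 in 1-MCP and 10.5 in H2O, with a ratio of 1.60. LOC112201476 was at 4.25 in AIR and 11.7 in 1-MCP, and LOC112193407, which is less abundant, at 0.894 and 3.41. These are the 4 genes that were at least 2-fold higher. LOC112179210 was at 33.4 in AIR, 65.3 in 1-MCP and 37.5 in H2O, and LOC112193612 at 76.7, 147 and 230.3, both just under 2-fold. The lowest ratio was that of LOC112192610, at 136 in AIR and 86.6 in 1-MCP. LOC112182118 was at 21.8 and 13.9, LOC112180147 at 44.6 and 30.8, LOC112200260 at 27.2 and 19.0 and LOC112187412 at 42.9 and 30.4, none of them 2-fold apart.

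**Figure D5:**
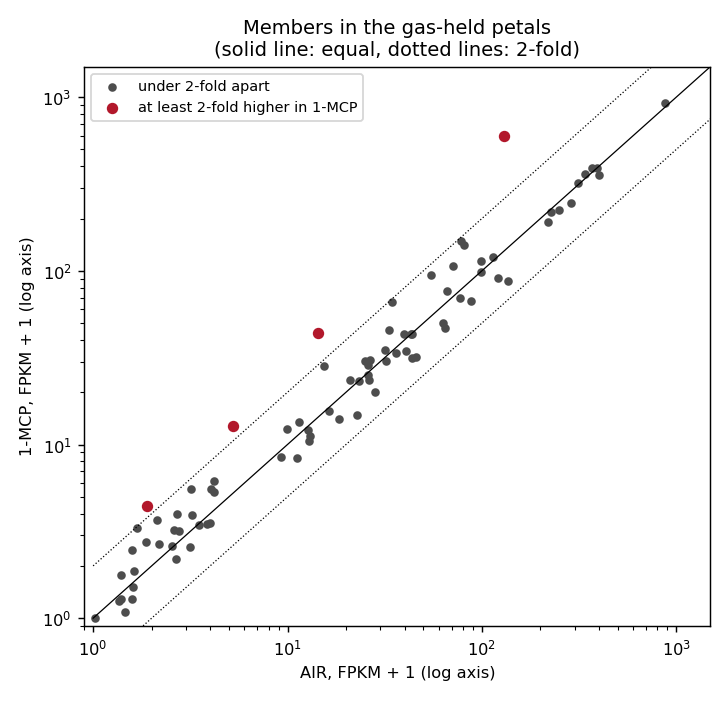
FPKM plus 1 of each of the 85 genes in AIR (x axis) and in 1-MCP (y axis), both on log axes, with a solid line at equal levels and dotted lines at 2-fold. Most genes lie near the solid line, 4 lie above the upper dotted line (red), of which LOC112168431 is the highest, and none lies below the lower one.

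The 85 genes lay on all 7 chromosome sequences of the RchiOBHm-V2 assembly, from 7 on NC_037094.1, or 0.387% of the genes there with at least 1 FPKM in H2O, to 16 each on NC_037092.1 (0.805%) and NC_037093.1 (0.787%). The share was highest on NC_037091.1, with 14 genes or 0.812%. At most 50 kb from another member were 9 genes (10.6% of the members), in 4 groups, and 3.18% of the other genes with at least 1 FPKM in H2O had a member at that distance. Of the 9 genes, 3 are those with a common locus described above. LOC112200187 and LOC112200189 on NC_037091.1 are 231 bp apart, and LOC112200189 was at 9.37 FPKM in H2O, 0.985 in BR and 3.25 to 4.14 in GA, JA, SA and AgNO3. LOC112164903 and LOC112164904 on NC_037092.1 are 8.07 kb apart, with 19.8 and 399 in H2O, 6.93 and 143 in BR and 26.3 and 453 in ABA. LOC112188756 and LOC112188753 on NC_037089.1 are 13.1 kb apart, with 117 and 124 in H2O, 32.4 and 41.5 in BR and 69.9 and 32.4 in AIR. Neighbours were thus alike in the 5 treatments, as the rule demands, but not always in gas.

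Some genes that the limit on ABA removed also lie beside a member. LOC112166164 is 1.84 kb from LOC112168431 and had the same direction in gas, with 55.1 FPKM in H2O, 0.810 in BR, 9.20 in JA, 71.2 in AIR and 308 in 1-MCP, but was at 10.7 in ABA. LOC112169651 is 1.22 kb from LOC112169650, which was at 3.23 in H2O, 0.0333 in BR, 5.38 in ABA, 0.0251 in AIR and is listed at 0 in 1-MCP. LOC112193581, at 125 in H2O, 12.5 in BR and 40.8 in ABA, is 26.9 kb from LOC112195260, which was at 41.8 in H2O, 14.9 in BR and 36.0 in ABA. In gas, the first of these pairs was thus above water and the second far below it. The genes of the third pair differed in gas. LOC112193581 was below water, at 7.58 in AIR and 11.8 in 1-MCP, and LOC112195260 was above it, at 61.9 and 49.3.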

How the data were processed

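RNA from petals was sequenced for 13 conditions with 3 replicates each, 39 samples in all. Reads were mapped by the authors to RchiOBHm-V2, the genome of Rosa chinensis, with TopHat2 2.1.1 and assembled with Cufflinks 2.2.0 and Cuffmerge. The authors deposited FPKM from Cuffdiff, 1 average per transcript and condition, and the sources used here do not give the scaling between conditions. FPKM of the 38170 transcripts were summed by gene identifier. The members and lists were chosen with earlier results of these data known. Genes named are those with the 10 highest levels in H2O, the 10 lowest mean ratios among members of at least 10 FPKM, the 3 nearest genes on each side of the threshold, and the 5 lowest and 5 highest ratios of 1-MCP over AIR among members of at least 10 FPKM in either. Others were named after their values were seen. The planned lists by gene description, tissue markers and promoter motifs need an annotation and were not used here. The planned fit with limma needs replicates and was not run. The rule was tested on simulated data. Alternatives are a pseudocount of 0.1, other minimums, thresholds and controls, median scaling and single transcripts. Python 3.11.15, numpy 2.4.6, pandas 2.3.3 and matplotlib 3.10.9 were used.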

Additional observations from a re-analysis of the deposited data

How the results depend on the processing

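No paired analysis was possible because each value is an average over its replicates, and leaving out replicates and the replicate block were not run for the same reason. Medians are called moved at a change of at least 0.1 on the log2 scale and counts at 1.5 times. The number of genes was 85 and became 621 at a threshold of -0.5, 13 at -1.5, 136 without JA in the rule, 45 with 6-BA as the control, 20 with NAA and 9 with 2,4-D. It was 117 with a pseudocount of 0.1, of which 80 are among the 85, 111 with median scaling, of which 84 are, 114 for single transcripts and 75 at a minimum of 5 FPKM. Each of these settings chose its own genes, so the counts that follow for them have these totals in place of 85. With a pseudocount of 0.1, those at least 2-fold lower than H2O were 29 of 117 in 2,4-D, 3 in 6-BA and 62 in 1-MCP, the median ratio in 1-MCP was -1.13, and of 104 compared 3 were lower and 10 higher in 1-MCP than in AIR. Of 114 transcripts, 28 were at least 2-fold lower in NAA, with a median ratio of -0.67, and 4 in 6-BA, and of 99 compared 7 were higher in 1-MCP than in AIR. With a minimum of 5 FPKM 0 of 75 genes were lower in 6-BA, and with median scaling 1 of 103 was lower in 1-MCP than in AIR. The following alternatives, which keep the 85 genes, and a sum by locus, which gave 78 loci, were chosen after seeing the data. With a pseudocount of 0.1 the same 85 genes gave 23 at least 2-fold lower in 2,4-D, 3 in 6-BA, a median ratio of -1.26 in AIR, and 8 higher in 1-MCP than in AIR. The 93 transcripts of the 85 genes gave 2 lower in 6-BA and, of 82 compared, 1 lower in 1-MCP than in AIR. The cause was not tested.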

Other observations

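Genes of the opposite direction, which were at least 2-fold higher than H2O in all of BR, GA, JA, SA and AgNO3 with ABA less than 2-fold apart and at least 1 FPKM in H2O, numbered 166. Their median log2 ratios were 0.85 in NAA, 0.78 in 2,4-D, 0.15 in 6-BA, 0.95 in AIR and 0.86 in 1-MCP, all on the side of the 5 treatments, and -0.08 for 1-MCP over AIR. The H2O average is shared by the first 5 of these ratios and by the rule.

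Of the 85 genes 77 have 1 transcript and 8 have 2. LOC112182118 was at 12.3 FPKM in H2O and 3.00 in BR in 1 transcript and at 5.37 and 3.79 in the other, so that only the former met the 5 thresholds. LOC112172671 was at 79.6 in H2O and 13.4 in BR in 1 transcript and at 3.02 and 1.68 in the other. In LOC112197704 neither transcript met all 5 thresholds by itself. It is listed at 0 in GA and was at 2.83 in H2O.

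The locus of 14 members lists another gene. LOC112167184, in the locus of LOC112164903, was at 138 FPKM in H2O, 59.7 in BR, 57.7 in SA and 97.9 in JA. LOC112189652, in the locus of LOC112188900, was at 3.80 in H2O, 1.30 in BR and 0.978 in GA.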
